A study of Mus musculus with 16 samples.

Results

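Liver gene expression on a low-fat diet was compared with that on a low-protein diet in Ercc1Δ/− mice, both diets being made up with extra carbohydrate. The 8 libraries used were chosen by their titles alone, 4 reading low fat - high carb and 4 reading low protein - high carb, out of 16 libraries on 4 diets in the whole study. The low-fat animals ate a diet with fat at 70% and carbohydrate at about 112% of the AIN93G standard. The low-protein animals ate a diet with protein at 70% and the same 112% of carbohydrate. Both diets were balanced for calories and were eaten freely from 8 weeks of age, after AIN93G pellets up to then, and the snap-frozen livers came from males aged 11 weeks. Every animal was an F1 Hybrid C57BL6J/FVBN of genotype Ercc1 d/-, with a truncated and a null allele, so the diets are compared within 1 mutant genotype and no repair-proficient animal stands beside them. Which animals shared a litter or a cage is not stated in the labels, and the p-values measure the spread between these animals alone. All genes entered the comparison, and 16912 of the 54752 in the deposited count table had enough counts to be tested.

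Ercc1 encodes a subunit of the endonuclease that cuts damaged DNA in nucleotide excision repair, and its loss makes mice age early, with the liver among the organs affected. The liver sorts what the gut delivers. Surplus amino acids lose their nitrogen in the urea cycle, carbohydrate is stored as glycogen or turned into fat under the factors SREBP-1c and ChREBP, and a shortage of amino acids switches on the ATF4 programme. Much of this work follows the hepatocyte clock, a loop in which BMAL1 (Arntl) with CLOCK or NPAS2 drives the Per, Cry and Rev-erb genes that in turn hold it back. The clock also drives the PAR bZIP factors DBP, TEF and HLF, which in mouse liver act on the receptor CAR (Nr1i3) and on the cytochrome P450 enzymes of drug metabolism.

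Library totals were 36871852 to 112789127 counts in the low-fat group, where replicate 2 was the deepest, and 36662347 to 43404769 counts in the low-protein group. Libraries of 1 diet differed by more than sampling noise, with a chi-square of 40.5 to 95.9 per degree of freedom, and none was a copy of another. Hepatocyte transcripts were abundant in all 8. The 11 hepatocyte markers, among them Alb and Ttr, summed to 96460 to 107800 CPM (counts scaled to the library total) in low-fat livers and 101100 to 117700 CPM in low-protein livers. Of 8 pancreas and 6 skeletal muscle markers, 1 each had counts in all 8 libraries. Ercc1 itself had 1.76, 1.48, 1.48 and 2.08 CPM in low-fat livers, against 1.92, 1.71, 1.35 and 1.42 CPM in low-protein livers. The diets overlapped, and since all animals carry the same alleles this gene checks no label between them. Here and below, values of single genes are CPM after edgeR's TMM scaling and stand in the order of replicates 1 to 4. In whole tissue, fewer cells of a type and less RNA per cell cannot be told apart.

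Kidney transcripts ran through the liver libraries and were unequal between the diets. All 20 kidney markers had a higher fitted level with low fat, 16 of them at an unadjusted p under 0.05 where 6.29% of all genes were, with a median log2 fold change of 1.23 (low fat over low protein, as everywhere below), against a median of -0.001 over all genes tested. Their summed level was 1077, 1748, 3303 and 2922 CPM in low-fat livers 1 to 4 and 1320, 1328, 713 and 748 CPM in low-protein livers 1 to 4. Low-fat 1 therefore lay below low-protein 1 and 2, and low-fat 3 and 4 lay above all others. Cubn, the cubilin receptor of the proximal tubule, had 18.9, 26.9, 53.03 and 50.3 CPM in low-fat livers, against 19.6, 10.9, 11.7 and 9.84 CPM in low-protein livers. The diets overlapped through low-fat 1 and low-protein 1. The 9 bile duct markers followed a like order, with 8 higher and a median of 0.765 (-0.15 with the kidney level as a covariate), and Pkhd1, Krt7 and Epcam, which kidney tubules also express, were at an unadjusted p under 0.05. How far kidney RNA enters other genes was not tested gene by gene, and values given below with the kidney level as a covariate come from a second fit of the same 8 libraries.

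**Figure D1:**
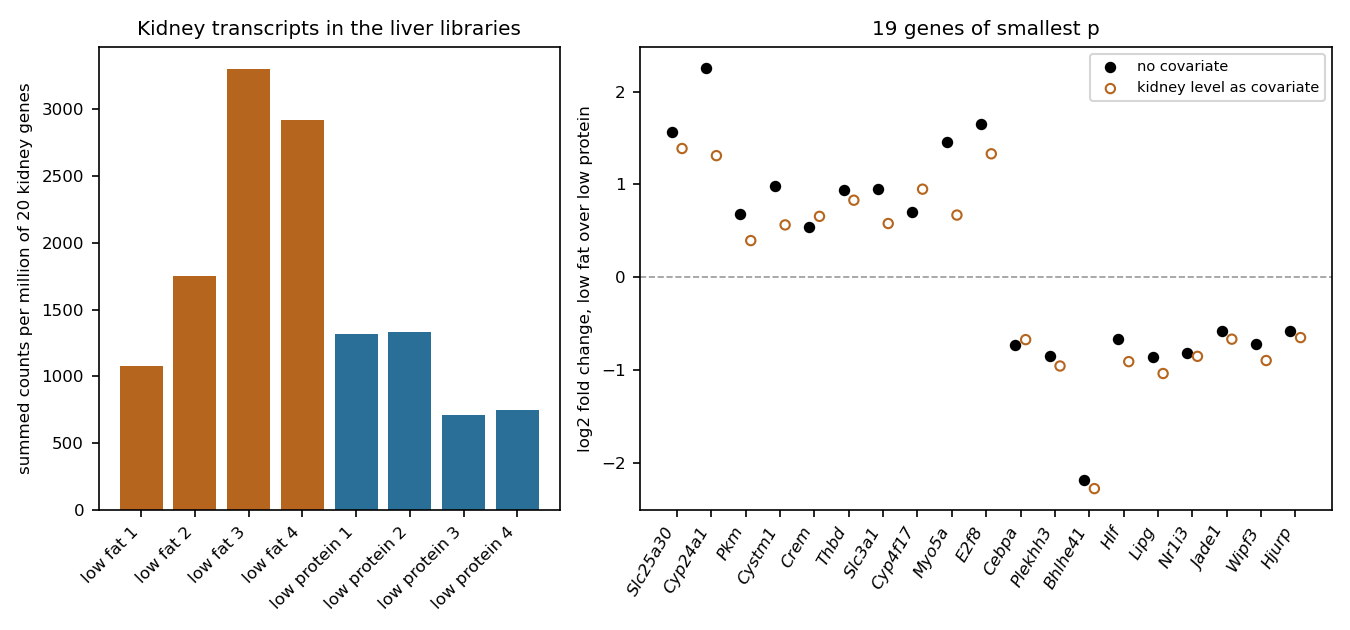
Left, bars give the summed CPM of 20 kidney genes in each library, and low-fat 3 and 4 stand highest at 3303 and 2922 CPM. Right, fitted log2 fold changes of 19 genes of smallest p (low fat over low protein) are shown without a covariate (filled) and with the kidney level as one (open), and each gene stays on its side of 0.

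As a whole the transcriptomes of the 2 diets lay apart by little more than replicates of 1 diet did. The mean distance between libraries, as the root mean square of log2 CPM differences over genes, was 0.61 between diets and 0.56 within them (0.59 within low fat, 0.54 within low protein). The excess of 0.04 had an exact one-sided permutation p of 0.029, which is the smallest value that the 70 assignments of libraries allow, and it missed 0.05 without low-fat 2 or without any 1 of the low-protein libraries. On the first principal component (27.5% of the variance) low-fat 1 to 4 lay at -12, 3.1, 53.4 and 28.3. Low-protein 1 to 4 lay at -3.7, -16.8, -15.8 and -36.5. Low-fat 3 and 4, with most kidney transcripts, were thus highest, and the part of kidney RNA in the distance was not tested. No single gene passed. The edgeR quasi-likelihood test called 0 of 16912 genes (0%) at a Benjamini-Hochberg adjusted p of 0.05, and the smallest adjusted p was 0.107, shared by 4 genes. At an unadjusted p under 0.05 stood 1671 genes (9.88%), of which 1063 (6.29%) were higher and 608 (3.6%) lower with low fat. With the kidney level as a covariate those counts were 560 and 551. DESeq2 called 447 genes at an adjusted p of 0.05, 333 higher and 114 lower. The 4 low-fat and 4 low-protein values did not overlap for 775 genes (4.58%), 394 higher (2.33%) and 381 lower (2.25%). No gene below passed the adjusted threshold in the edgeR fit of all 8 libraries, and words such as higher and lower describe the fitted level only.

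The 20 protein-coding genes of smallest p, 10 in each direction, are described next. In all 20 the diets did not overlap, which their choice by p goes far to fix. Cebpa (chromosome 7, 35119293 to 35121928, GRCm38), the C/EBP-alpha factor that keeps hepatocytes differentiated, had 286, 289, 269 and 329 CPM in low-fat livers, against 421, 487, 542 and 500 CPM in low-protein livers. The lowest low-protein liver was above the highest low-fat liver, and the log2 fold change was -0.73 (SE 0.11) with an edgeR adjusted p of 0.107. Jade1, a scaffold of histone acetyltransferases, was at 41.9 ± 3.41 CPM with low fat and 62.5 ± 6.12 CPM with low protein (SD, n = 4 each, as for all such CPM values below), and Hjurp, the chaperone that loads the centromeric histone CENP-A, was at 69.9 ± 6.82 CPM with low fat and 104 ± 11.5 CPM with low protein. Bhlhe41, Hlf and Nr1i3, also on this side, are described with the clock and with drug metabolism. In high-protein livers Cebpa ranged from 236 to 482 CPM and in control livers from 297 to 584 CPM (scaled over 16 libraries), ranges that take in levels of both diets.

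On the higher side, Slc25a30 (chromosome 14, 75760117 to 75787037), a mitochondrial carrier also called KMCP1 and first described in kidney, had 68.0, 108, 114 and 100.5 CPM in low-fat livers, against 29.7, 29.1, 27.5 and 46.2 CPM in low-protein livers. Low-protein 4 stood above the other 3 of its diet and still below every low-fat liver. The log2 fold change was 1.56 (SE 0.20), with an edgeR adjusted p of 0.107, and 1.39 (edgeR adjusted p = 0.528) with the kidney level as a covariate. Low-fat 1 had the lowest kidney level and the lowest Slc25a30 of its diet. Its kidney level was below that of low-protein 1 and 2, and its Slc25a30 above theirs. The part of kidney RNA in Slc25a30 was not tested. In the other diets Slc25a30 spread widely, from 32.7 to 83.7 CPM with high protein and from 23.2 to 90.1 CPM in control. Pkm, the pyruvate kinase of most tissues other than mature liver, had 31.7, 40.1, 41.2 and 49.4 CPM in low-fat livers, against 26.2, 26.7, 23.4 and 24.9 CPM in low-protein livers, and Slc3a1, a subunit of the cystine and dibasic amino acid transporter of kidney and gut, had 70.4, 59.9, 96.3 and 92.9 CPM in low-fat livers, against 53.8, 37.8, 39.9 and 34.3 CPM in low-protein livers. Neither overlapped. With the kidney level as a covariate the log2 fold change was 0.39 against 0.68 without it for Pkm, and 0.58 against 0.95 for Slc3a1.

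Cyp24a1, which breaks down active vitamin D and is chiefly a kidney enzyme, had 3.72, 3.45, 12.1 and 7.01 CPM in low-fat livers, against 1.39, 1.26, 1.30 and 1.53 CPM in low-protein livers. Low-fat 3 and 4, the libraries with most kidney RNA, were highest. Its log2 fold change was 1.31 with the kidney level as a covariate against 2.25 without it. That of Myo5a, a myosin motor, was 0.67 against 1.46, and that of Cystm1 0.56 against 0.98. For Crem, a cAMP-responsive factor, the log2 fold change was larger with the covariate, at 0.655 against 0.54 without it. The same held for Cyp4f17, of a family of fatty acid hydroxylases, at 0.95 against 0.70. Thbd, thrombomodulin of endothelium, was at 0.83 against 0.94. E2f8, an atypical E2F repressor with a part in hepatocyte polyploidy, had 5.16, 7.03, 5.47 and 12.8 CPM in low-fat livers, against 1.81, 2.68, 1.79 and 3.41 CPM in low-protein livers. Low-fat 4 was the highest and no low-protein liver reached the lowest low-fat one. The remaining lower genes were Lipg, endothelial lipase, at 6.31 ± 1.13 CPM with low fat and 11.4 ± 0.354 CPM with low protein, and Plekhh3 and Wipf3, with log2 fold changes of -0.85 (SE 0.13) and -0.72 (SE 0.13).

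**Figure D2:**
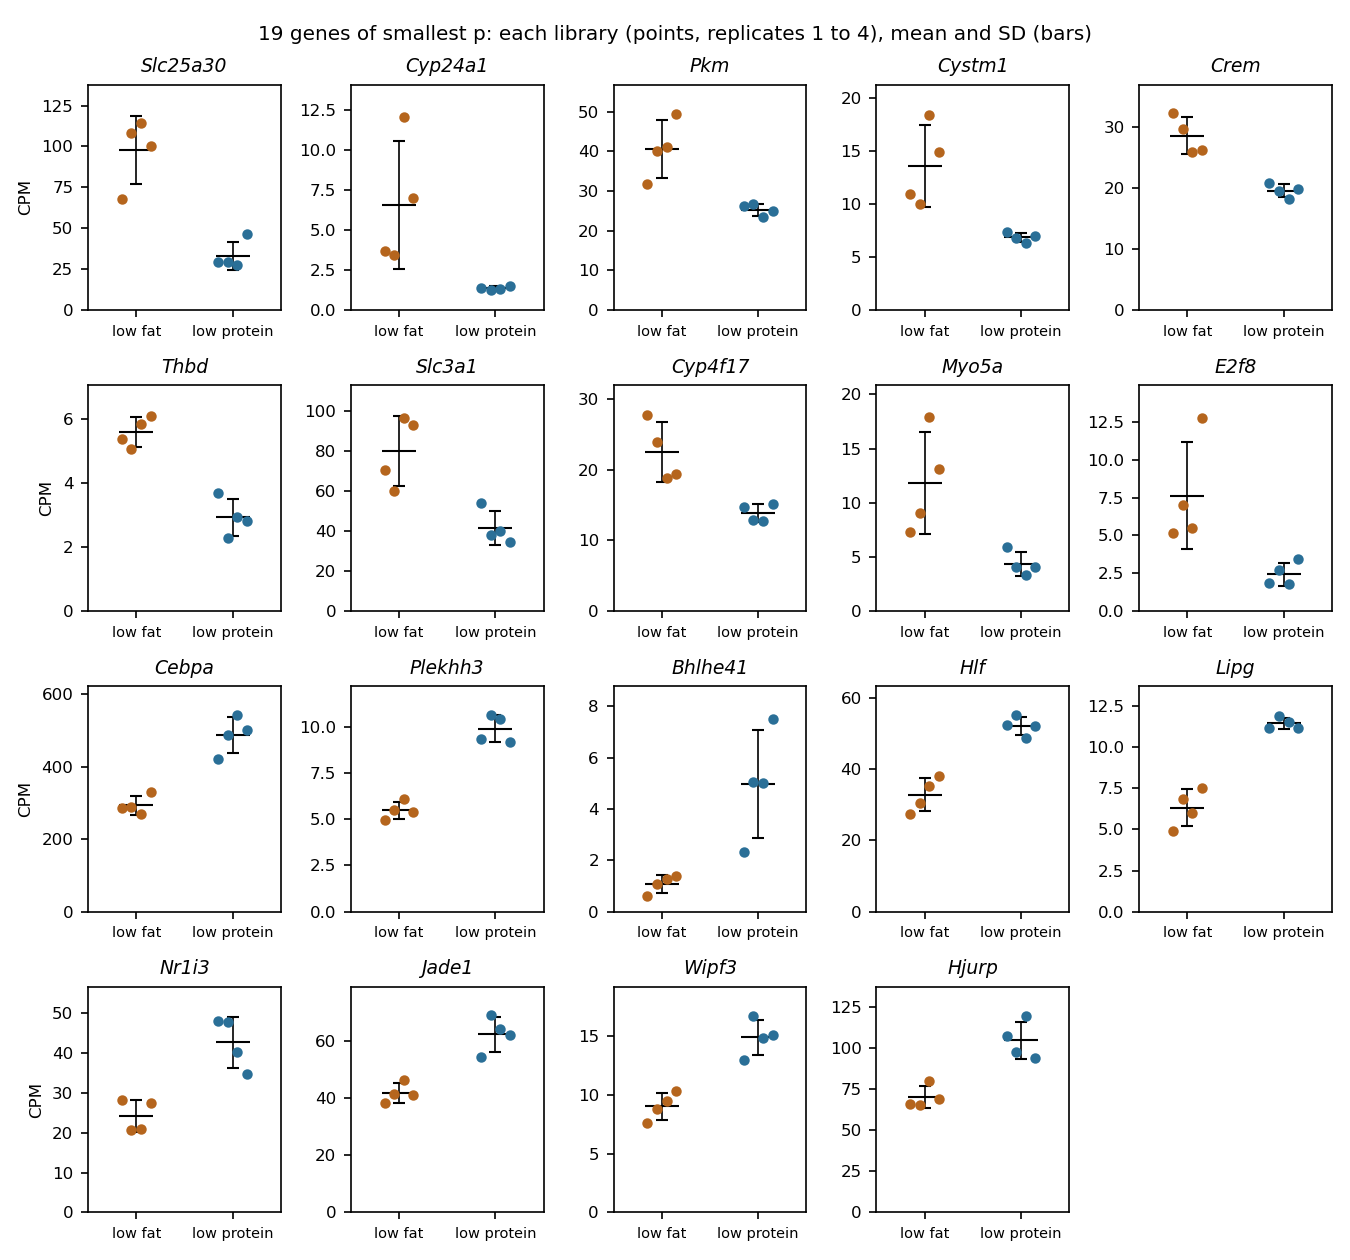
CPM values (y axes from 0) of 10 higher and 9 lower genes of smallest p, with a point for each of 4 low-fat and 4 low-protein livers in replicate order and the mean and SD as bars. In all 19 panels the diets do not overlap, yet no gene passes the adjusted threshold.

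The circadian clock list gave the widest range of fold changes of the 53 lists. Of 22 members tested, 17 were lower and 5 higher, with a median log2 fold change of -0.48 where that of all genes was -0.001, and 4 in each direction had an unadjusted p under 0.05 (background 6.29% higher and 3.6% lower). The activators Arntl and Npas2 and most outputs lay on opposite sides. Arntl, the BMAL1 activator, had 24.1, 13.4, 19.7 and 2.32 CPM in low-fat livers, against 7.84, 3.99, 3.49 and 2.64 CPM in low-protein livers, and its partner Npas2 had 3.46, 1.66, 3.36 and 0.409 CPM in low-fat livers, against 0.614, 0.744, 0.488 and 0.398 CPM in low-protein livers. For both genes low-fat 1 to 3 were above all low-protein livers, while low-fat 4 was the lowest of all 8 for Arntl and the lowest but 1 for Npas2. Nfil3, a repressor that competes with the PAR bZIP factors, had 46.2, 37.0, 28.3 and 18.1 CPM in low-fat livers, against 19.9, 6.96, 17.7 and 13.0 CPM in low-protein livers. Cry1, a repressor of the loop, had 8.83, 8.61, 10.0 and 9.80 CPM in low-fat livers, against 7.04, 6.51, 7.02 and 3.81 CPM in low-protein livers. The diets overlapped for Nfil3 through low-fat 4 and low-protein 1, and not for Cry1.

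Most outputs and the other repressors named here were lower. Dbp, the PAR bZIP factor with the strongest rhythm in mouse liver, had 9.23, 46.2, 20.2 and 111 CPM in low-fat livers, against 80.9, 132, 169 and 176 CPM in low-protein livers, with low-fat 4 inside the low-protein range. Hlf (chromosome 11, 90336536 to 90390895) had 27.5, 30.7, 35.4 and 38.0 CPM in low-fat livers, against 52.5, 55.2, 48.9 and 52.1 CPM in low-protein livers, and Cry2 had 32.2, 37.5, 39.5 and 48.5 CPM in low-fat livers, against 51.9, 56.1, 66.5 and 57.0 CPM in low-protein livers. For Hlf and Cry2 all 4 low-fat livers were below all 4 low-protein livers, at log2 fold changes of -0.67 (SE 0.11) and -0.55 (SE 0.13). Bhlhe41 (chromosome 6, 145858243 to 145865558), the DEC2 repressor of the loop, had 0.612, 1.07, 1.28 and 1.39 CPM in low-fat livers, against 2.32, 5.05, 5.00 and 7.505 CPM in low-protein livers. Its log2 fold change of -2.19 (SE 0.35) was the lowest of all genes tested, with an edgeR adjusted p of 0.171. Ciart, the CHRONO repressor, had 1.76, 2.48, 0.944 and 9.36 CPM in low-fat livers, against 3.84, 17.9, 10.7 and 22.1 CPM in low-protein livers, where low-fat 4 stood with the low-protein livers. Tef, Per3, Per1 and Per2 had log2 fold changes of -0.73, -1.36, -0.93 and -0.51, none at an unadjusted p under 0.05.

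The level of the list also differed between livers of 1 diet. The median deviation of the 22 genes from their 8-library mean was -0.57, -0.38, -0.24 and 0.27 log2 units in low-fat 1 to 4, and -0.01, 0.15, 0.34 and 0.42 in low-protein 1 to 4. Low-fat 4 was thus nearer to the low-protein livers, and the list's median log2 fold change was -0.71 without it and -0.29 without low-fat 1. The labels give a light and dark cycle but no hour of sampling for each animal, and the part of sampling time in these values was not tested.

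**Figure D3:**
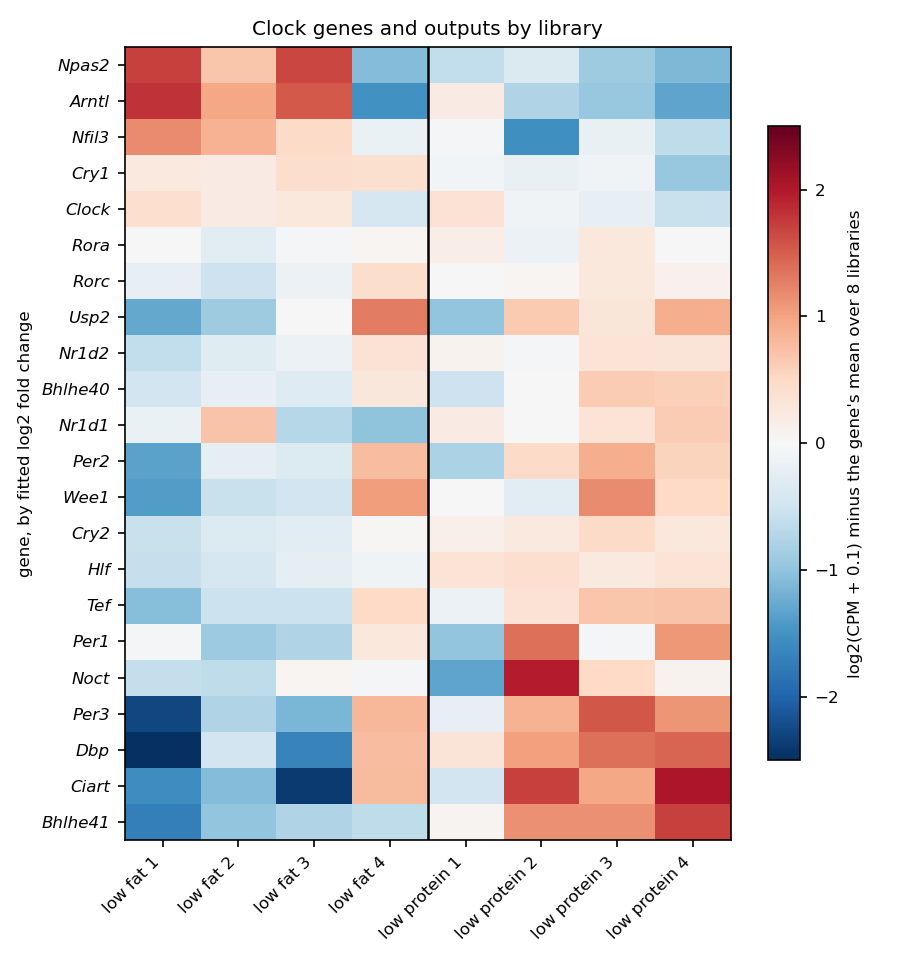
Each cell is log2(CPM + 0.1) of a clock gene minus its mean over the 8 livers, with low-fat 1 to 4 left of the line and low-protein 1 to 4 right of it, and genes ordered by fitted fold change. Arntl and Npas2 are high and Dbp, Ciart and Per3 low in low-fat 1 to 3, while low-fat 4 looks like the low-protein livers for most of these genes.

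Promoter sequences are shown for 4 of these genes because the loop acts through short motifs near the start of transcription. BMAL1 with its partner binds the E-box CACGTG, which reads the same on both strands, and the PAR bZIP factors and NFIL3 share the D-box, searched here as TTANGTAA on both strands. RefSeq promoters (250 bases before to 50 after the start, GRCm38.p6) were found for 18 of the 22 clock genes. An E-box was present for 5 of the 18 (the 3 below, Per1 and Tef) and a D-box for 1. The 18 genes have 23 promoters, and a gene was counted if any of its promoters matched. Of all 32851 promoters in the table, counted singly, 7.15% and 2.32% held the motifs, so the units differ. Capitals mark the motifs, and all 4 genes lie on the minus strand.
Bhlhe41, chr6:145865371-145865670: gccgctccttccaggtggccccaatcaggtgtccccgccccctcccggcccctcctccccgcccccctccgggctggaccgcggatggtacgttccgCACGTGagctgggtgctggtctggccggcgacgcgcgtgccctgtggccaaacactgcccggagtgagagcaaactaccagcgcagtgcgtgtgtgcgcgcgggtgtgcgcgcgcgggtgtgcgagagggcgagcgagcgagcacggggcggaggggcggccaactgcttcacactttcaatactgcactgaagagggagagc
Ciart, chr3:95882179-95882478: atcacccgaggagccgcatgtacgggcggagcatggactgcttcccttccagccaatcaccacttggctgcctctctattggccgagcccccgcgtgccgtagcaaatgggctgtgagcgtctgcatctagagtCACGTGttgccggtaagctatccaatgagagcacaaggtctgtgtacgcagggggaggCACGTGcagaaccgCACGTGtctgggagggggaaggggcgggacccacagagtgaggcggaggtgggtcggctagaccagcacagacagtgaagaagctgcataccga
Cry1, chr10:85185005-85185304: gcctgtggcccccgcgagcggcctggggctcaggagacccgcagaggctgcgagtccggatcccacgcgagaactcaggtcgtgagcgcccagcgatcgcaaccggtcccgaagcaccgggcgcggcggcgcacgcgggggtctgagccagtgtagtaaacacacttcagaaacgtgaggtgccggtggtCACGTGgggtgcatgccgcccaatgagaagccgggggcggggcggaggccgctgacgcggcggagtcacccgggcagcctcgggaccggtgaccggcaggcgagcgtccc
Per3, chr4:151044616-151044915: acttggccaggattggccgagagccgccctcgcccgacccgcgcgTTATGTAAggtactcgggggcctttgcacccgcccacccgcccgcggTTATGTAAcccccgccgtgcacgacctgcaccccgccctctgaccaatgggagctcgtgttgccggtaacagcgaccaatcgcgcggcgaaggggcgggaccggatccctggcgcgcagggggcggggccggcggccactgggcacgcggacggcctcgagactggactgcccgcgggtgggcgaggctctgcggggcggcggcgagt
The E-box of Bhlhe41 starts 153 bases before the start, those of Ciart 116, 58 and 44 bases before it, and that of Cry1 60 bases before it. Bhlhe41 and Ciart were lower and Cry1 was higher with low fat, so genes with the same motif lay on both sides of the comparison. Per3 carries a D-box 205 and another 158 bases before its start. A match describes letters in this window and is no measure of binding.

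Drug-metabolising enzymes and their receptors mostly had lower fitted levels with low fat. Of 19 members tested 17 had a lower fitted level, 8 at an unadjusted p under 0.05 against a background of 3.6%, and the median log2 fold change was -0.37. Nr1i3 (chromosome 1, 171213970 to 171220701), the CAR receptor for drugs and bilirubin, had 28.1, 20.8, 20.9 and 27.5 CPM in low-fat livers, against 48.1, 47.8, 40.2 and 34.6 CPM in low-protein livers, without overlap. Its log2 fold change was -0.81 (SE 0.14), with an edgeR adjusted p of 0.171. Cyp2a5, the coumarin hydroxylase of mouse, had 264, 318, 219 and 632 CPM in low-fat livers, against 673, 855, 656 and 815 CPM in low-protein livers, with low-fat 4 the nearest to the low-protein livers and no overlap. Leaving out low-fat 4 widens this gap by construction. Cyp2a5 then had a log2 fold change of -1.49 and an edgeR adjusted p of 0.0131, 1 of 6 genes called. The fit of all 8 libraries called 0, so the smaller fit is no added evidence for a difference.

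The P450 enzymes of the Cyp2c and Cyp3a families named here shared the direction. Cyp3a25 was at 433 ± 59.7 CPM with low fat and 698 ± 194 CPM with low protein, Cyp2c50 at 428 ± 29.8 CPM with low fat and 612 ± 134 CPM with low protein and Cyp3a11, the main CYP3A enzyme of mouse liver, at 1165 ± 266 CPM with low fat and 1664 ± 427 CPM with low protein. Cyp2c54 and Cyp2c37 had log2 fold changes of -0.57 (SE 0.20) and -0.70 (SE 0.29), with low-protein 3 inside the low-fat range for the first and under it for the second. These families share sequence, so their counts may be split between copies. The list's median was -0.47 with the kidney level as a covariate and between -0.45 and -0.295 when any 1 library was left out. Several of these enzymes sit around the central vein, and 12 of 14 pericentral genes were lower (median -0.19, between -0.23 and -0.125 with 1 library left out). Cyp2e1, the ethanol-inducible P450, had 4296, 4069, 4621 and 4958 CPM in low-fat livers, against 5665, 6767, 4845 and 5841 CPM in low-protein livers, with low-fat 4 above low-protein 3. Rnf43, a Wnt target that dampens Wnt signalling, had 19.5, 13.9, 30.1 and 10.2 CPM in low-fat livers, against 36.4, 54.6, 44.2 and 29.6 CPM in low-protein livers, with low-fat 3 just above low-protein 4. Among 14 periportal genes 9 were higher and 5 lower (median 0.08, and 0.01 without low-fat 1).

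**Figure D4:**
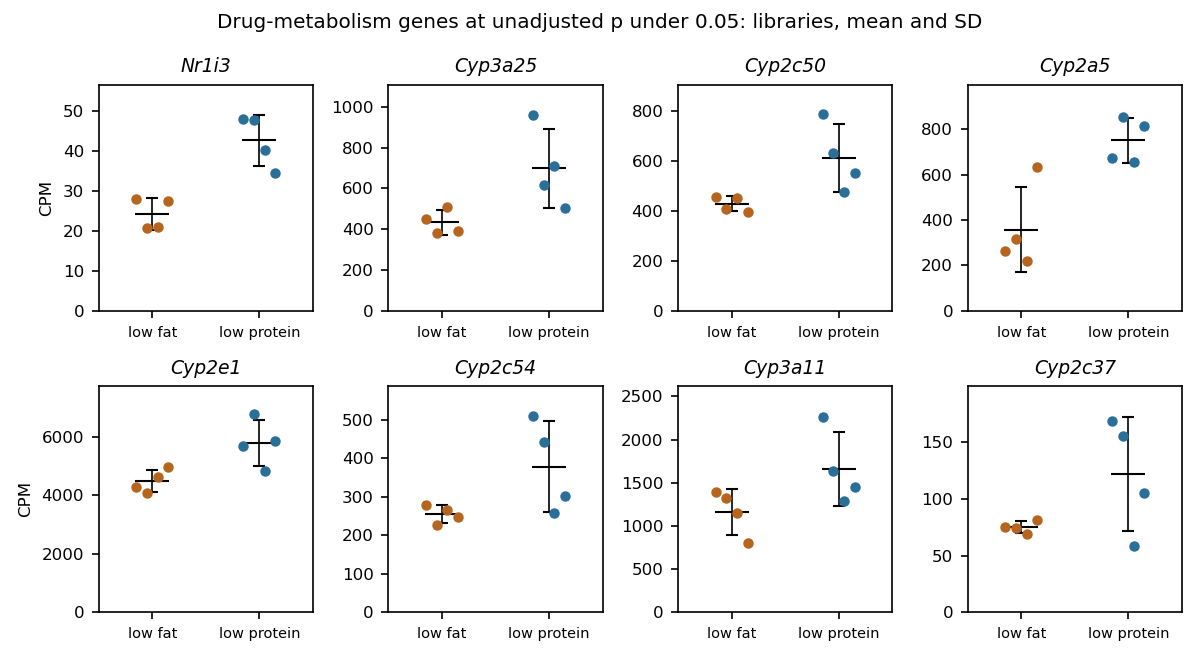
CPM values (y axes from 0) of the 8 drug-metabolism genes at an unadjusted p under 0.05, with a point for each of 4 low-fat and 4 low-protein livers and the mean and SD as bars. Low-fat means lie to the left and are lower in all 8 panels, and Nr1i3, Cyp2c50 and Cyp2a5 show no overlap.

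Protein was at 70% of the standard in the low-protein diet, and no protein value was given for the low-fat diet. The diets are named for different nutrients, so a part of protein cannot be told apart from a part of fat. Fold changes of genes that handle amino acids were mostly small. Of 8 urea cycle genes 2 were higher and 6 lower, 0 at an unadjusted p under 0.05, with a median log2 fold change of -0.06. Cps1, the entry enzyme of the cycle, had 4152, 3786, 4115 and 4508 CPM in low-fat livers, against 3667, 3511, 3918 and 3962 CPM in low-protein livers, and Ass1, which joins citrulline to aspartate, had 3413, 2295, 2962 and 2709 CPM in low-fat livers, against 2631, 1953, 2328 and 2767 CPM in low-protein livers. Both overlapped between diets. On a scale set over all 16 libraries Cps1 spanned 3737 to 4370 CPM with low fat and 3434 to 3819 CPM with low protein, under the 4681 to 6341 CPM of the high-protein livers. Branched-chain amino acid breakdown (20 genes, median -0.015) held Bcat2, which starts the breakdown outside hepatocytes, at 45.7 ± 5.66 CPM with low fat and 57.4 ± 2.73 CPM with low protein, with a log2 fold change of -0.33 that was -0.15 with the kidney level as a covariate. Sds, serine dehydratase, had 179, 65.5, 95.2 and 173 CPM in low-fat livers, against 68.0, 156, 124 and 173 CPM in low-protein livers, a wide spread within each diet around a log2 fold change of -0.03. Acmsd, which steers tryptophan breakdown away from NAD synthesis and is abundant in liver and kidney, had 74.9, 57.7, 71.7 and 90.3 CPM in low-fat livers, against 46.2, 29.8, 48.1 and 41.0 CPM in low-protein livers. It did not overlap, and its log2 fold change was 0.83 (SE 0.17), or 0.84 with the kidney level as a covariate.

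Of 21 genes of ATF4 and the response to amino acid shortage 17 were higher with low fat (median 0.17, between 0.115 and 0.31 with 1 library left out), where 49.9% of all genes tested were higher and 50.1% lower. Chac1, a glutathione-degrading ATF4 target, was the 1 member at an unadjusted p under 0.05, where 6.29% of all genes were higher at that level. Chac1 had 5.27, 5.50, 3.63 and 8.93 CPM in low-fat livers, against 2.06, 1.98, 2.98 and 3.35 CPM in low-protein livers, at a log2 fold change of 1.17 (SE 0.28). No low-protein liver reached the lowest low-fat one. Asns, asparagine synthetase and a standard marker of amino acid limitation, had 2.37, 1.17, 0.774 and 1.58 CPM in low-fat livers, against 2.27, 1.28, 1.81 and 2.10 CPM in low-protein livers. Fgf21, a liver hormone of protein restriction, had 2.63, 7.47, 0.702 and 1.56 CPM in low-fat livers, against 2.06, 1.15, 1.16 and 4.58 CPM in low-protein livers. Both overlapped, and the highest Fgf21 values were in low-fat 2 and low-protein 4. Atf4 itself had a log2 fold change of 0.02 (SE 0.15). Among 16 amino acid transporters, Slc3a1, Slc43a2 and Slc7a8 were higher and Slc38a3 and Slc38a4 lower at an unadjusted p under 0.05. Over all genes tested, 6.29% were higher and 3.6% lower at that level. Slc3a1, Slc43a2 and Slc7a8 are also kidney transporters.

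Genes of carbohydrate handling lay on both sides. G6pc, the catalytic subunit that releases glucose from hepatocytes, had 701, 424, 669 and 345 CPM in low-fat livers, against 326, 314, 353 and 298 CPM in low-protein livers. Its mean was higher with low fat and the diets overlapped through low-fat 4 and low-protein 3, with a log2 fold change of 0.73 (SE 0.21). Slc2a2, the GLUT2 transporter, had 379, 344, 390.4 and 382 CPM in low-fat livers, against 450, 442, 536 and 459 CPM in low-protein livers and did not overlap. Gys2, liver glycogen synthase, had 147, 126, 128 and 185 CPM in low-fat livers, against 185, 215, 204 and 358 CPM in low-protein livers, with low-protein 4 far above the rest, and 7 of 8 glycogen genes were lower (median -0.26, between -0.36 and -0.16 with 1 library left out). Without low-protein 4 the log2 fold change of Gys2 was -0.46 against -0.71. Pklr, the liver pyruvate kinase and a ChREBP target, was at 207 ± 21.8 CPM with low fat and 220.5 ± 59.2 CPM with low protein, while Pkm, given above, was higher with low fat.

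Lipogenic genes varied widely among low-protein livers. Of 14 tested 10 were higher and 4 lower with low fat, 0 at an unadjusted p under 0.05, with a median of 0.12. Leaving out low-protein 2 turned that median to -0.03, leaving out low-protein 4 gave 0.35, and the kidney covariate gave 0.395. Fasn, fatty acid synthase, had 604, 580.2, 532 and 818 CPM in low-fat livers, against 300.1, 302, 892 and 828 CPM in low-protein livers, and Acacb, acetyl-CoA carboxylase 2, had 59.5, 71.6, 46.5 and 61.5 CPM in low-fat livers, against 18.2, 18.9, 50.8 and 105 CPM in low-protein livers. Low-protein 1 and 2 were lowest for both genes, and low-protein 3 or 4 was highest. Scd1, the delta-9 desaturase, had 5014, 5851, 2143 and 2335 CPM in low-fat livers, against 1873, 1139, 2106 and 4734 CPM in low-protein livers, highest in low-fat 1 and 2 and low-protein 4. Srebf1 had 99.8, 158, 224 and 296 CPM in low-fat livers, against 159.6, 169.8, 530 and 181 CPM in low-protein livers, with low-protein 3 far above the rest, and Pnpla3 was at 1.62 ± 0.510 CPM with low fat and 0.963 ± 0.746 CPM with low protein. Of 6 genes of polyunsaturated fatty acid synthesis 5 were lower (median -0.10, and 0.035 without low-protein 4), among them Fads1 and Fads2 with log2 fold changes of -0.08 (SE 0.16) and -0.20 (SE 0.24) and Fads6 with -0.23 (SE 0.09).

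Most genes of fat burning had a slightly lower fitted level with low fat. Of 21 genes of mitochondrial fatty acid oxidation and ketogenesis 19 were lower (median -0.08, between -0.14 and -0.04 with 1 library left out). From 1 to 7 of the 21 were higher with 1 library left out. Bdh1, the ketone body dehydrogenase, was at 339.8 ± 24.0 CPM with low fat and 432 ± 47.6 CPM with low protein. Cpt1a, the gate of mitochondrial fatty acid entry, was at 404 ± 23.3 CPM with low fat and 469.8 ± 56.7 CPM with low protein. The 25 other PPAR-alpha targets split 10 higher to 15 lower. Acot4 and Ppara itself were lower at -0.58 (SE 0.15) and -0.44 (SE 0.14) on the log2 scale, and Cyp4a31 and Pdk4 higher at 0.78 (SE 0.22) and 1.17 (SE 0.47), while Cyp4a14 was at 404 ± 215 CPM with low fat and 381 ± 249 CPM with low protein. Of 24 cholesterol genes 18 were lower (median -0.13), but without low-fat 2 only 13 were (median -0.015). Mvd, mevalonate diphosphate decarboxylase, lay in the other direction at 25.1 ± 3.98 CPM with low fat and 17.7 ± 4.63 CPM with low protein.

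In bile acid and sterol export, 16 of 21 genes were lower (median -0.15, between -0.20 and -0.09 with 1 library left out) and 3 had an unadjusted p under 0.05, where 3.6% of all genes were lower at that level. Abcg5 and Abcg8 form the sterol export pump and share a promoter region. Abcg5 had 131, 142, 140.4 and 137 CPM in low-fat livers, against 151, 208, 201 and 169 CPM in low-protein livers, and Abcg8 had 129, 115, 142 and 99.1 CPM in low-fat livers, against 139, 175, 183 and 160.3 CPM in low-protein livers. Abcg5 did not overlap and Abcg8 did by 1 library of each diet. Abcc3, a basolateral bile salt exporter, had a log2 fold change of -0.47 (SE 0.18). Cyp7a1, the rate-limiting enzyme of bile acid synthesis, had 36.8, 35.7, 37.6 and 140.1 CPM in low-fat livers, against 138, 101, 77.0 and 25.6 CPM in low-protein livers, with low-fat 4 high and low-protein 4 low.

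**Figure D5:**
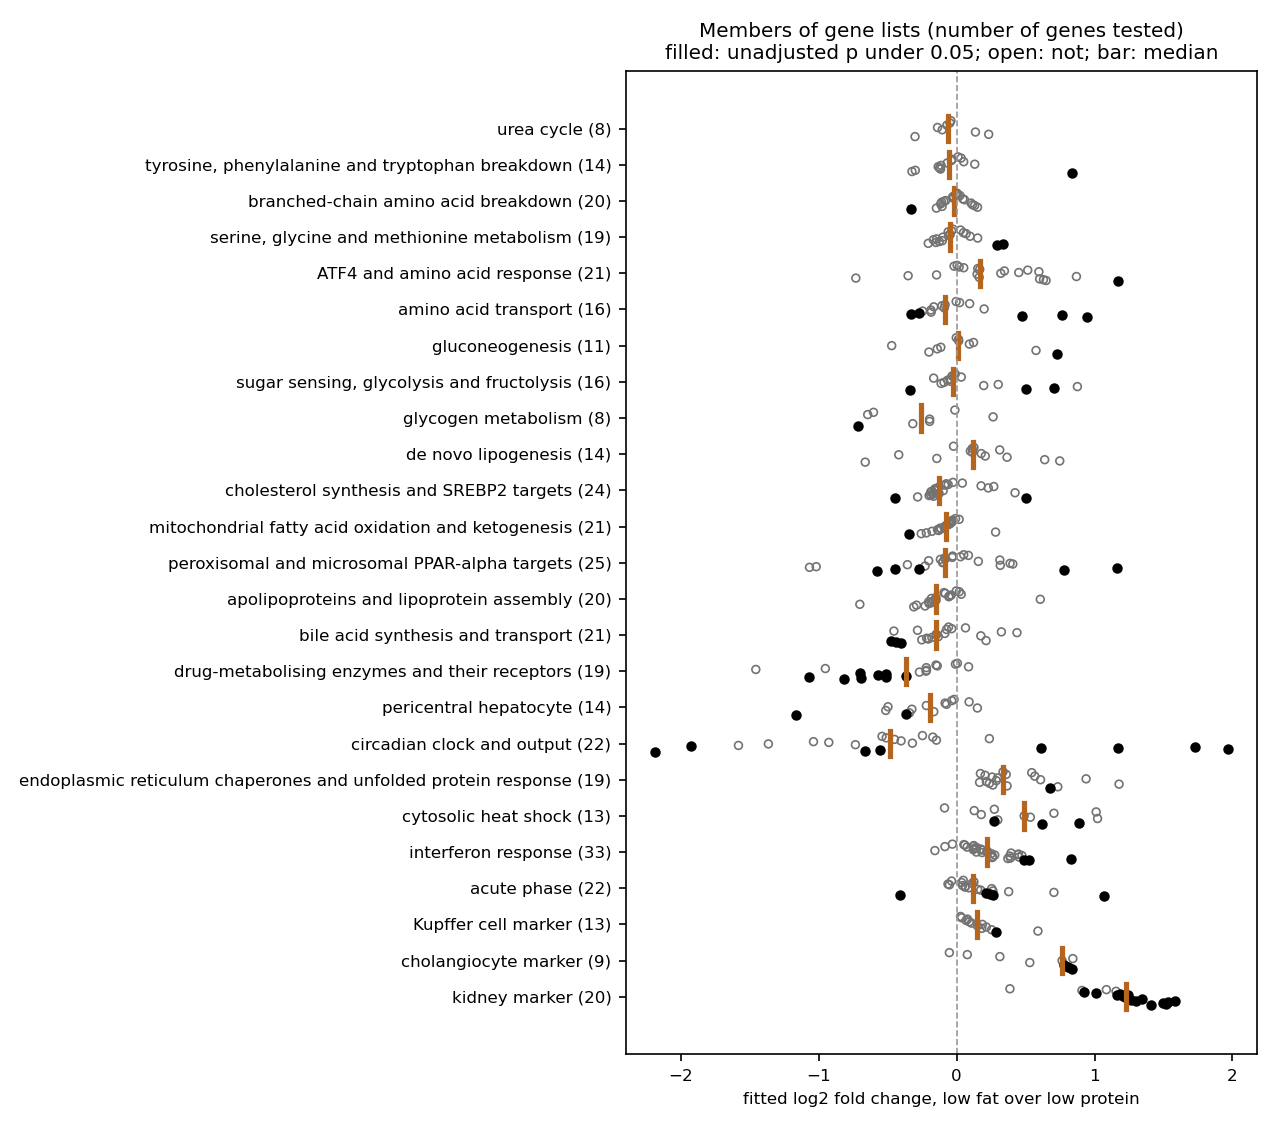
Each point is a gene of the named list at its fitted log2 fold change, low fat over low protein, filled where the unadjusted p was under 0.05, and the bar is the list's median. Kidney and bile duct markers lie furthest right, with medians of 1.23 and 0.765, the clock lies to the left at -0.48, and the urea cycle close to 0.

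Protein-folding genes had higher fitted levels with low fat. All 19 chaperones and unfolded protein response genes of the endoplasmic reticulum had a higher fitted level, with a median of 0.34. Only Hspa5 had an unadjusted p under 0.05, where 6.29% of all genes were higher at that level. Hspa5, the BiP chaperone, had 1483, 2239, 1034 and 1091 CPM in low-fat livers, against 858, 723, 754 and 1328 CPM in low-protein livers, with low-fat 2 the highest and low-protein 4 above low-fat 3 and 4. Its log2 fold change was 0.68, and 0.39 without low-fat 2. Of 13 cytosolic heat shock genes 12 were higher (median 0.49). Hsp90aa1, the inducible HSP90, had 349, 492, 332 and 433 CPM in low-fat livers, against 252, 228, 246 and 322 CPM in low-protein livers and did not overlap, at a log2 fold change of 0.62 (SE 0.15). Hsph1, a co-chaperone of HSP70, had 117, 170.4, 75.7 and 114 CPM in low-fat livers, against 45.8, 62.3, 43.4 and 107 CPM in low-protein livers, where low-protein 4 lay inside the low-fat range. Without low-fat 2 the medians of these lists were 0.17 and 0.24, with all 19 and 11 of 13 still higher.

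Kupffer cell and interferon genes were highest in low-fat 2 as well. Of 33 interferon-response genes 30 were higher (median 0.22), 3 of them, Ifit2, Oasl2 and Oas3, at an unadjusted p under 0.05, a share close to the 6.29% of all genes. Without low-fat 2 the list's median was 0.06, and Oasl2 was at 0.27 against 0.53 with all libraries. All 13 Kupffer cell markers were higher (median 0.15), and without low-fat 2 the median was 0.02, with 7 of 13 higher. Their summed level was 338, 491, 315 and 314 CPM in low-fat livers and 316, 308, 269 and 397 CPM in low-protein livers, where the diets overlap. Erythroid and T and NK cell markers were also highest in low-fat 2, and the part of these cells in the chaperone and interferon values was not tested. Of 22 acute phase genes 18 were higher (median 0.12), and without low-fat 4 there were 12 (median 0.04). At an unadjusted p under 0.05, 4 were higher and 1 was lower, where 6.29% and 3.6% of all genes were. The fibrinogen genes Fga, Fgb and Fgg were each higher at an unadjusted p under 0.05, with log2 fold changes of 0.26 (SE 0.11), 0.21 (SE 0.10) and 0.24 (SE 0.11), Orm2, an acute phase glycoprotein, was higher at 1.07 (SE 0.39) and at 0.56 without low-fat 4, and Hamp, the iron hormone hepcidin, was lower at -0.41 (SE 0.17).

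Feedback genes of growth hormone signalling had higher means with low fat. Socs2 had 21.9, 47.4, 38.1 and 56.9 CPM in low-fat livers, against 11.1, 23.4, 18.9 and 23.6 CPM in low-protein livers, and Cish had 9.18, 11.2, 40.9 and 42.0 CPM in low-fat livers, against 4.38, 13.3, 11.3 and 3.75 CPM in low-protein livers. The diets overlapped for both, and low-fat 3 and 4, the libraries with most kidney transcripts, were far above the rest for Cish. With the kidney level as a covariate the log2 fold change of Socs2 was 0.76 against 1.09 without it. The median of the 11 growth hormone and IGF genes was -0.01 with the covariate against 0.07. Igfbp2, an insulin-like growth factor carrier, was at 244 ± 42.1 CPM with low fat and 314 ± 26.0 CPM with low protein. Igfbp1, an insulin-repressed carrier, was at 184 ± 61.8 CPM with low fat and 129 ± 69.2 CPM with low protein. Of 8 tested genes with a female pattern in mouse liver 5 were lower (median -0.97, and -0.25 without low-protein 2), with levels that differed widely among low-protein livers. Cyp3a44 was at 0.772 ± 0.167 CPM with low fat and 1.77 ± 1.10 CPM with low protein, at -1.21 on the log2 scale, or -0.79 if low-protein 4 is left out. The 12 genes with a male pattern had a median of 0.115, which turned to -0.08 without low-protein 2.

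The title of the study concerns gene length. The slope of the log2 CPM deviation on log10 genomic length over 16869 genes was 0.035 ± 0.104 per library with low fat and -0.035 ± 0.051 with low protein (SD, n = 4 each). The difference of 0.071 had an exact two-sided permutation p of 0.29 and rested in part on low-fat 3, whose slope was 0.185. Without that library the difference was 0.021. The median log2 fold change was -0.04 for 5684 genes under 10 kb and 0.06 for 1878 genes over 100 kb.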

How the data were processed

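The values are raw counts per gene, deposited by the authors as 1 table of 16 libraries. The tools they list, per the submitters' processing notes, are Trimmomatic 0.39 for trimming, STAR 2.7.0f, featureCounts of Subread 1.6.4, and edgeR 3.32.1, on genome build GRCm38.p6. The strand setting of the counting is not given in the sources used here, so antisense overlaps cannot be told apart, and families with near-identical members (Cyp2c, Cyp3a, Cyp4a, Mup) may have reads split between copies. Of 54752 gene identifiers, 53861 matched GENCODE M21 with their version, 862 without it and 29 not at all.

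The 8 libraries were fitted alone from the deposited counts with edgeR 4.0.16 in R 4.3.3 (filterByExpr, TMM factors, robust quasi-likelihood test, Benjamini-Hochberg adjustment at 0.05), without a replicate block. DESeq2 1.42.0, limma 3.58.1 (voom), other factors, filters, a kidney covariate, all 16 libraries, a replicate block and leaving out each library were alternatives, and leaving out the kidney genes was added after seeing the data. Transcriptome distances and length slopes, on log2 CPM with a prior count of 2, had exact permutation tests over 70 assignments. The fit was tested on simulated data first.

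Genes named are the 10 protein-coding genes of smallest p in each direction with a mean of at least 1 CPM in 1 diet, the 2 members of smallest p in each of 53 lists, and a fixed set (such as Fgf21, Cps1 and Fasn); other list members named were chosen after their values were seen. Results for a few of these genes are not reported here. The comparison, the lists and the fixed set were chosen with earlier results of these data known. Promoter sequences come from RefSeq.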

Additional observations from a re-analysis of the deposited data

Results flagged for a closer look

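Each diet has 4 livers, and a liver was singled out where its gap to the nearest of the other 3 took up most of the range of its diet by Dixon's ratio. Chance does this for about 1 in 20 groups, 238 groups were searched and 14 values stood out.

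Low-fat 2 stood apart by its depth of 112789127 counts. It also had the highest sums of Kupffer cell markers (491 CPM), T and NK cell markers (18.1 CPM) and erythroid markers (760.6 CPM) among low-fat livers. Low-fat 4 stood apart with 37.6 CPM of B cell markers, and with a low pancreas sum of 0.732 CPM. Low-fat 1 had a low adrenal sum of 2.39 CPM, and low-protein 3 had the highest pancreas sum, 2.18 CPM. Cela2a alone made up 2.16 CPM of that pancreas sum and 0.678 CPM of the low one in low-fat 4. The adrenal sum of low-fat 1 was Star at 1.98 CPM and Cyp21a1 at 0.411 CPM. These sums thus rest on single genes at low counts and are no measure of pancreas or adrenal tissue.

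Single genes stood out in 6 cases. Cyp7a1 was at 140.1 CPM in low-fat 4, where the other low-fat livers had 35.7 to 37.6 CPM. Srebf1 was at 530 CPM in low-protein 3. In low-protein 4, Gys2 was high at 358 CPM, Slc25a30 was high at 46.2 CPM and Cry1 was low at 3.81 CPM. Bcat2 was low at 53.3 CPM in low-protein 1, against 58.6 to 59.0 CPM in the other livers of that diet.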

How the results depend on the processing

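The count of called genes, 0 in the edgeR fit, differed between settings. DESeq2 gave p-values for 31507 genes, applied its own filter on mean counts before adjusting them, and called 447. Tool and filter thus changed together. Of the 447, 446 had an unadjusted p under 0.05 in the same direction in the edgeR fit. EdgeR with no filter on low counts, on 31515 genes, called 91. The range with each library left out was 0 to 92, with 92 called without low-fat 1, 6 without low-fat 4 and 1 (Slc25a30) without low-protein 4. Limma-voom, other scaling factors, a filter at 1 CPM, all 16 libraries, the kidney covariate and leaving out the kidney genes (chosen after seeing the data) called 0. The replicate block called 4 genes (Bhlhe41, E2f8 and Socs2 among them). Libraries of the same number correlated at -0.109, 0.002, 0.155 and -0.028, and those of different numbers at -0.282 to 0.209. So few values cannot show whether the numbers pair the animals, and the labels do not state it. Genes at an unadjusted p under 0.05 numbered 1671 of 16912 tested, against 1111 with the kidney covariate (50.4% of them higher, against 63.6%). With all 16 libraries in 1 fit they numbered 420 of 17833 tested (42.4% higher). That fit kept 148 of 1063 higher and 221 of 608 lower genes at that level. They numbered 1516 with the block, and 1359 to 1884 with 1 library left out. By voom 2036 stood there, 52.4% higher. The covariate kept 215 of 1063 higher and 249 of 608 lower genes at that level. It reversed Krt7 to -0.082 and Slc4a1 to -0.084 on the log2 scale. The distance between diets, 0.041, ranged from 0.0265 to 0.0691 with 1 library left out. The exact permutation p was then 0.057 without low-fat 2 (0.0486), and 0.11, 0.14, 0.11 and 0.086 without low-protein 1 to 4 (0.0383, 0.0307, 0.0265 and 0.0299). The cause of these shifts was not tested. What depth limits was not separated from the spread between animals.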

Other observations

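Genes of cell division had higher fitted levels with low fat for 20 of 26 members (median log2 fold change 0.23, between 0.17 and 0.29 with 1 library left out), 3 of them at an unadjusted p under 0.05 where 6.29% of all genes were. Top2a, the topoisomerase of dividing cells, had 4.95, 5.67, 5.30 and 2.35 CPM in low-fat livers, against 2.46, 1.78, 2.60 and 3.72 CPM in low-protein livers, and Bub1, a mitotic checkpoint kinase, had 0.505, 0.314, 0.677 and 0.437 CPM in low-fat livers, against 0.454, 0.113, 0.0930 and 0.199 CPM in low-protein livers. Both overlapped between diets, and the log2 fold change of Bub1 was 1.82 without low-protein 1 against 1.16. Of 15 p53 targets 12 were higher (median 0.05, and 0.01 without low-protein 4) and 0 had an unadjusted p under 0.05. Cdkn1a, the p21 inhibitor of the cell cycle, had 66.7, 33.0, 27.6 and 12.1 CPM in low-fat livers, against 18.2, 17.6, 15.2 and 17.6 CPM in low-protein livers, with low-fat 4 the lowest and low-fat 1 the highest of all 8. Of 24 nucleotide excision repair genes 17 were lower (median -0.05), with Rpa3, a subunit of replication protein A, at 3.24 ± 0.397 CPM with low fat and 4.35 ± 0.705 CPM with low protein.

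Ribosomal and respiratory genes shared small fold changes. Of 77 cytosolic ribosomal protein genes 70 were lower (median -0.095), and so were 50 of 60 nuclear genes of the respiratory chain (median -0.08), while 8 of 13 mitochondrial genes were higher (median 0.01). The median deviation of the ribosomal list ranged from -0.33 to 0.22 log2 units among low-fat livers and from -0.13 to 0.13 among low-protein livers, more than the fold change between diets. Without low-fat 3 the ribosomal median was -0.006 with 37 of 77 higher, and the respiratory median was -0.03 with 21 of 60 higher, against 10 with all libraries. Of 20 genes of apolipoproteins and lipoprotein assembly 17 were lower (median -0.15, and -0.03 with the kidney level as a covariate). Insulin signalling (15 genes, median -0.003), the glucocorticoid response (13 genes, median -0.065, and 0.25 without low-protein 2) and NRF2 targets (12 genes, median -0.03) had 0 members at an unadjusted p under 0.05 in the edgeR fit.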
